A study of Mus musculus with 16 samples.

Results

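The microRNAs of the miR-199 and miR-214 families were followed through 16 small RNA libraries of C2C12, a line of mouse muscle precursor cells. These cells divide as myoblasts in rich serum and form multinucleated myotubes after serum is reduced. All rows listed under miR-199a-5p, miR-199a-3p, miR-199b-5p, miR-199b-3p, miR-214-3p and miR-214-5p were taken, with or without a hairpin copy number in the name. These are 6 of 2273 miRNA names in the deposited tables after merging. Control cells are labelled wild-type, and triple-knockout cells (tKO) are labelled as lacking miR-206 and both miR-1a genes, miR-1a-1 as well as miR-1a-2. Each genotype was sampled in growth medium (GM, 20% FBS) and after 3 days of differentiation (DM3, 2% HS). The growth protocol names the parent cells of all groups as C2C12 PAX7 NEG. Each of the 4 groups holds 4 libraries: lines 1 and 2, each with biological replicates 1 and 2. A line is a population in control cells and a clone in tKO cells. A tKO clone and a control population differ in their derivation as well as in genotype, and these cannot be told apart. Because the 4 libraries of a group come from 2 lines, p-values measure the spread between libraries and not between independent lines.

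A microRNA is cut from a hairpin precursor by Drosha and Dicer, and either the 5′ arm (5p) or the 3′ arm (3p) can be loaded into an Argonaute protein. Bases 2 to 8 of the loaded strand, the seed, pair with target messenger RNAs, so a read that starts at another base carries another seed. In the mouse, miR-214 and the Mir199a-2 hairpin copy of miR-199a are made from the long noncoding RNA Dnm3os, which is transcribed in mesoderm and connective tissue. In muscle cells miR-214 is known for repressing Ezh2, a Polycomb methyltransferase, and miR-199a-3p has been studied as a regulator of growth factor signalling in myoblasts.

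The mature sequences are shown because the later results turn on their first and last bases. They come from RefSeq (GRCm38.p6), which gave a sequence for 5 of the 6 members, and the capitals mark the seed. miR-199a-3p and miR-199b-3p have the same mature sequence.
miR-199a-3p: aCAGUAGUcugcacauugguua
miR-214-3p: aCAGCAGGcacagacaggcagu
miR-199a-5p: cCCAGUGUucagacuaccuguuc
miR-214-5p: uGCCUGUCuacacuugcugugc
The 3p arms of the families share their first 4 bases. Counted from 1 at the 5′ end, and from miR-199a-3p to miR-214-3p, they differ within the first 8 bases by U5C and U8G, so they share most of a seed but not all of it.

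The members come from 4 hairpins. Mir199a-2 lies at chr1:162217814-162217923 on the plus strand of GRCm38, and Mir214 lies 5444 bases further on at chr1:162223368-162223477, on the same strand. GENCODE M21 places both in an exon of Dnm3os and, on the opposite strand, inside an intron of Dnm3. Mir199a-1 lies at chr9:21496495-21496564 on the minus strand, inside an intron of Dnm2 on the opposite strand. Mir199b lies at chr2:32318460-32318569 on the plus strand, inside an intron of Dnm1 on the opposite strand. The pair of neighbouring hairpins is printed with the mature arms in capitals, to show the base just before each 3p arm.
Mir199a-2: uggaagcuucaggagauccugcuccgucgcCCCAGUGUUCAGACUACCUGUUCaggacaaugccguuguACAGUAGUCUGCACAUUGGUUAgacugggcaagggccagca
Mir214: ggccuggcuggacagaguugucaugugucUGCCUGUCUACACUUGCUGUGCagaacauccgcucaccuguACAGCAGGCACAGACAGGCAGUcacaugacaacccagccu

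The libraries held 112792 to 6543570 reads, and replicate 2 was deeper than replicate 1 in every group and line. A count of 0 in a library allows up to 3 reads, which is 0.458 to 26.6 CPM (counts scaled to library size) depending on depth. Such limits cover counting error only. Reads under 18 nt made up 1.88% to 6.49% of a library in GM and 2.96% to 18.9% in DM3, with the highest share in the smallest library, tKO DM3 line 1 replicate 1. The names miR-6240 and miR-6236 together took 0.555% to 5.41% of reads in GM and 1.60% to 35.4% in DM3, highest in the same library. Within GM, tKO line 1 replicate 2 was the highest by both measures. The targeted miR-206-3p stood at 1156 ± 297 CPM (SD, n = 4) in control GM against 6.79 ± 6.38 with the knockout. In DM3 it stood at 34361 ± 16201 CPM against 21.8 ± 33.0. The summed level of 6 muscle miRNAs ran from 23112 to 59672 CPM in control DM3 and from 156 to 1082 CPM with the knockout, a gap made mostly of miR-206-3p, which is on that list and deleted in tKO cells. miR-1a-3p, also deleted, stood at 109 and 3.00 CPM in control and tKO DM3. None of the 4 undeleted members was called there. miR-133b-3p stood at 494 and 93.4 CPM, miR-486a-5p at 82.6 and 69.5 and miR-499-5p at 4.36 and 8.01. miR-133a-3p stood at 1586 ± 447 CPM (SD, n = 4) in control DM3 against 345 ± 297 with the knockout (adjusted p = 0.098 in edgeR). The summed level of 10 markers of blood, endothelium, liver, neurons and epithelium was 139 to 218 CPM for control and 34.3 to 135 CPM for tKO libraries in GM. In DM3 it was 60.5 to 122 CPM for control and 16.3 to 74.6 CPM for tKO libraries, and 8 of the 10 were listed, with miR-142a-5p and miR-124-3p not listed under those names. Most of the gap between the genotypes was miR-9-5p, at 118 and 8.76 CPM for control and tKO in GM and 77.5 and 11.9 in DM3, and called lower in both media. The liver marker miR-122-5p was uncalled between genotypes, at 20.4 and 37.9 CPM in GM, and the epithelial miR-200b-3p likewise, at 3.53 and 10.5. From GM to DM3, 4 of the 6 muscle miRNAs rose in control cells, where 15.9% of all names did, and 2 in tKO cells, where 11.4% did. miR-133a-3p and miR-133b-3p rose in both genotypes, the deleted pair in control cells, and miR-486a-5p and miR-499-5p were called in neither. Of the other list, miR-122-5p fell in both genotypes and the remaining 4 tested names were not called. In bulk RNA, fewer cells of a type and less RNA per cell cannot be told apart.

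The miR-199 and miR-214 families were abundant in all 4 groups. Together the 6 names took 2.78% ± 0.222 (SD, n = 4) of all miRNA reads in control GM, 2.35% ± 0.605 in tKO GM, 3.62% ± 0.814 in control DM3 and 3.40% ± 1.43 in tKO DM3. miR-199a-5p, the 5p arm, gave 51.3% of the members' reads over all libraries, and by mean CPM it ranked 20 among all names in control GM and 11 in control DM3. miR-199b-3p gave 36.3% of the members' reads and ranked 28 and 29. miR-214-3p, the arm studied for Ezh2, gave 9.29% and ranked 49 and 52, and its partner miR-214-5p gave 2.96% and ranked 99 and 102. miR-199b-5p and miR-199a-3p were low, with 0.133% and 0.0546% of the members' reads.

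The low count of miR-199a-3p is a matter of naming. Every exact 3p read of the family was listed under miR-199b-3p, and miR-199a-3p received only sequences listed under its copy-numbered hairpins, 571 reads in all 16 libraries. The reads of the 3p arms are therefore treated as those of 3 hairpins together wherever an arm is described.

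Levels are given per library on the TMM-scaled CPM scale, which divides each count by the library's effective size, in the order line 1 and line 2 of replicate 1, then line 1 and line 2 of replicate 2. miR-199a-5p measured 16134, 18398, 15480 and 16235 in control GM. In tKO GM it measured 13454, 17064, 6890 and 11994. In control DM3 it measured 17934, 27952, 13691 and 18530, and in tKO DM3 12705, 33140, 10419 and 15680. Line 2 of replicate 1 was the highest library in all 4 groups, and the ranges of the groups overlapped in each comparison. The mean in DM3 was above that in GM in both genotypes, but the spread between DM3 libraries was wider than that step.

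miR-199b-3p measured 7551, 15496, 9717 and 11610 in control GM and 14132, 14818, 4271 and 9651 in tKO GM. It measured 5498, 6243, 5515 and 13577 in control DM3 and 4939, 12468, 7945 and 13135 in tKO DM3. In control DM3, 3 libraries lay close together and line 2 of replicate 2 lay far above them. All groups overlapped.

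miR-214-3p measured 5697, 3534, 2930 and 2744 in control GM and 2175, 3569, 2016 and 2425 in tKO GM. It measured 5344, 4609, 2971 and 2702 in control DM3 and 1891, 5035, 1462 and 2457 in tKO DM3. The tKO mean was below the control mean in both media. In each medium, 3 of the 4 tKO libraries were below all control libraries, and line 2 of replicate 1 lay inside the control range.

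miR-214-5p measured 1054, 938, 945 and 1066 in control GM and 791, 985, 591 and 756 in tKO GM. It measured 541, 1138, 736 and 902 in control DM3 and 468, 1189, 618 and 864 in tKO DM3. The control GM libraries were close together, and 3 of 4 tKO GM libraries were below them. miR-199b-5p ran from 16.4 to 143 over all libraries, with both lines of replicate 1 above both lines of replicate 2 in every group. The share of all names that separate the replicates in this way was not counted, so the pattern may not be particular to this member.

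**Figure D1:**
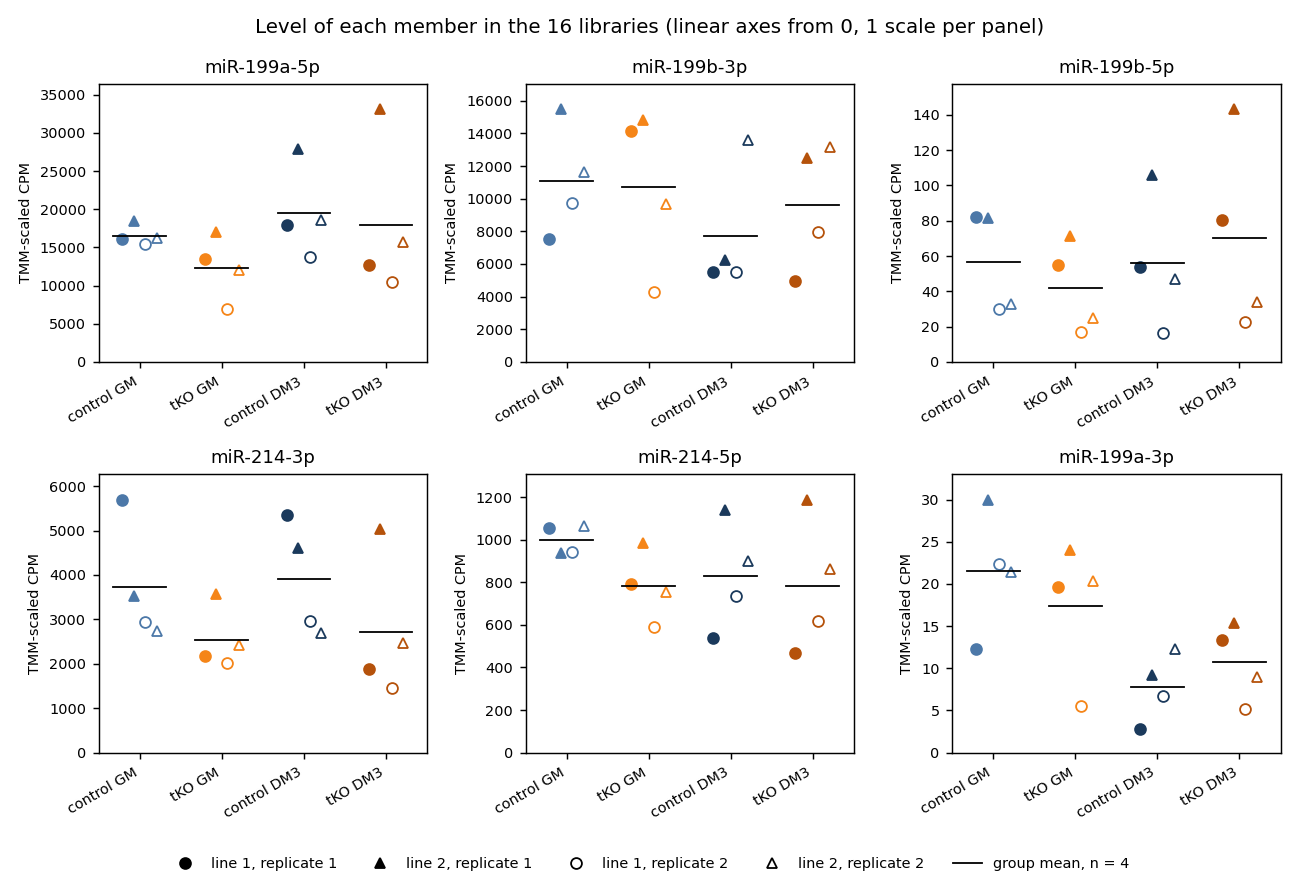
Level of each of the 6 members in every library as TMM-scaled CPM (vertical axis, linear from 0, with its own scale per panel) for the 4 groups (horizontal axis). Circles are line 1, triangles line 2, filled symbols replicate 1, open symbols replicate 2, and bars group means of 4 libraries. miR-199a-5p reaches 33140 in tKO DM3 line 2 replicate 1, and the groups overlap in every comparison except miR-199a-3p between control DM3 and control GM, where the highest DM3 value (12.33) and the lowest GM value (12.33) nearly touch.

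The tKO comparison asks whether loss of miR-206 and miR-1a changes these mesodermal miRNAs. None of the 6 members passed an adjusted p of 0.05 in GM (edgeR quasi-likelihood fit, Benjamini-Hochberg adjusted across all 807 tested names, of which 9, or 1.12%, were called, 0.496% higher and 0.62% lower). All 6 log2 fold changes of tKO over control were below 0, with a median of -0.39 against 0.11 over all names. The largest was that of miR-214-3p at -0.55 (SE 0.38, 95% interval -1.34 to 0.24, adjusted p = 0.876), and miR-199a-5p was at -0.42 (SE 0.35, interval -1.16 to 0.31). miR-199b-3p was at -0.05 with an interval of -0.91 to 0.81. Its sign turned under other settings, to 0.33 with only libraries of number 1, with the other values in the closing section. In GM, 0 members had groups that did not overlap, against 8.92% of all names. At the members' spread, a change within these intervals was not detectable.

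In DM3, 0 of the 6 members were called between tKO and control, with 7 of 807 names called (0.867%, of which 0.372% higher and 0.496% lower). The members' median log2 fold change was 0.048 against 0.0891 for all names, with 3 above 0 and 3 below. miR-214-3p was again the lowest at -0.53 (SE 0.38, interval -1.32 to 0.27, adjusted p = 0.584 in edgeR), with a range of -1.02 (without tKO DM3 line 2 replicate 1) to -0.28 (without control DM3 line 1 replicate 1) on leaving out 1 library. miR-199b-3p was at 0.32 (SE 0.41, interval -0.54 to 1.18) and miR-199a-5p at -0.12 (SE 0.35, interval -0.85 to 0.61). Groups that did not overlap were found for 0 members and 4.71% of all names.

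The DM3 against GM comparison asks how the families behave as myoblasts become myotubes. In control cells, 0 of the 6 members passed, although 223 of 807 names did (27.6%, of which 15.9% higher and 11.8% lower). miR-199a-3p measured 12.33, 30.01, 22.4 and 21.4 TMM-scaled CPM in control GM and 2.85, 9.23, 6.73 and 12.33 in control DM3. It was the closest to the threshold, at -1.36 (SE 0.51, interval -2.44 to -0.29, unadjusted p = 0.0157, adjusted p = 0.0555 in edgeR), on 1 to 115 reads per library. It was also the only member whose groups did not overlap, as for 32.7% of all names, and the 2 nearest libraries both measured 12.33. A DESeq2 Wald test put it past the threshold, at -1.37 with an adjusted p of 0.0460, and called 31.0% of names. Leaving out 1 library put it past the threshold in 4 of 16 cases: -1.60 without control GM line 1 replicate 1, -1.41 without tKO DM3 line 1 replicate 1, -1.35 without tKO GM line 1 replicate 2 and -1.86 without control DM3 line 2 replicate 2. Its adjusted p in those fits was 0.0431, 0.0468, 0.0286 and 0.0366. Those fits called 24.7%, 30.8%, 28.7% and 29.0% of names. A filter at a mean of 10 CPM in a group gave -1.42 with an adjusted p of 0.0417, where 33.4% of names were called. With replicate number and line as terms it was at -1.37 with an adjusted p of 0.0272, where 34.1% of names were called. miR-199b-3p, which holds nearly all 3p reads, was at -0.53 (SE 0.41, interval -1.39 to 0.34). miR-199a-5p was at 0.24 (SE 0.35, interval -0.50 to 0.97), miR-214-3p at 0.07 (SE 0.38, interval -0.72 to 0.86) and miR-214-5p at -0.27 (SE 0.32, interval -0.95 to 0.41).

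In tKO cells, 0 of the 6 members passed between DM3 and GM, with 159 of 807 names called (19.7%, of which 11.4% higher and 8.3% lower). miR-199a-3p was at -0.84 (SE 0.52, interval -1.92 to 0.24, adjusted p = 0.274 in edgeR), with the same sign as in control cells. miR-199b-5p was at 0.71 (SE 0.64, interval -0.63 to 2.06) and miR-199a-5p at 0.54 (SE 0.35, interval -0.19 to 1.28, adjusted p = 0.305). Without tKO DM3 line 2 replicate 1, the latter was at 0.04. miR-214-3p was at 0.09 (SE 0.38, interval -0.70 to 0.88), miR-214-5p at 0.01 and miR-199b-3p at -0.16. Groups that did not overlap were found for 0 members and 153 of 807 names (19%). The difference of the differentiation effects between genotypes passed for 0 members and for 0 of 807 names (0.0%) in edgeR, with 37 names at an unadjusted p under 0.05 and 0 names in DESeq2. This difference, tKO minus control, was above 0 for all 6 members, with a median of 0.34 against 0.05 over all names. It ran from 0.02 for miR-214-3p (interval -1.10 to 1.14) to 0.74 for miR-199b-5p (interval -1.16 to 2.64), and all 6 intervals held 0. Its sign turned under other settings for miR-214-3p, miR-214-5p, miR-199a-5p and miR-199b-5p, with the values in the closing section.

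**Figure D2:**
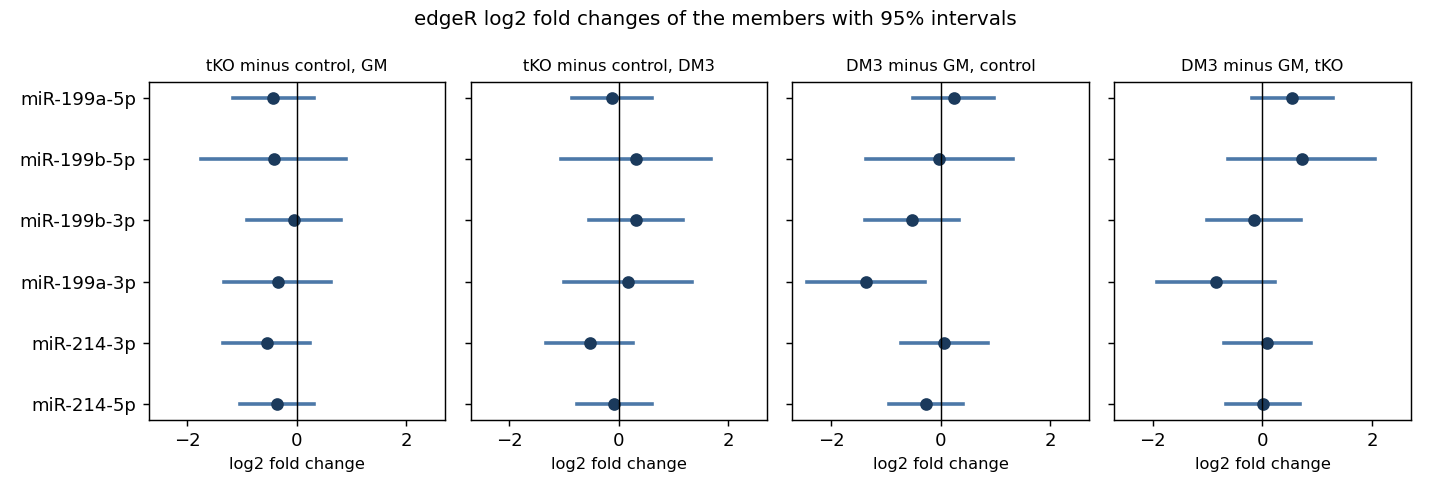
edgeR log2 fold change (points) with 95% interval (lines) of the 6 members in 4 comparisons, with 0 as the vertical line. The interval of miR-199a-3p in control DM3 minus GM, -2.44 to -0.29, is the only one that leaves out 0, and its adjusted p was 0.0555. That name holds only sequences listed under copy-numbered hairpins. Its exact mature sequence is counted under miR-199b-3p, whose interval there holds 0.

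miR-199a-5p passed the threshold under narrower counts of the sequences, which also moved the whole table. These counts kept reads of a sequence with or without bases added at the 3′ end. When only exact mature sequences were kept, it was called higher in DM3 in control cells (0.87, SE 0.28, adjusted p = 0.0200 in edgeR, 29.5% of 292 names called) and in tKO cells (0.75, SE 0.28, adjusted p = 0.0415, 30.5% of names called). That count also moved the log2 fold changes of the names it shares with the full table by a median of 0.60 in control cells and 0.21 in tKO cells, while miR-199a-5p itself had been at 0.24 and 0.54. The exact share of the miR-199 5p arms was 69.2% in GM and 70.7% in DM3 in control cells and 69.0% and 66.0% in tKO cells. With sequences of 18 to 25 nt without mismatch it was called in tKO cells (0.74, SE 0.26, adjusted p = 0.0403 in edgeR, 26.5% of 441 names called) and not in control cells. In tKO cells that count moved all shared names by a median of 0.19.

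The arms of a hairpin were compared inside each library, where scaling has no part. The log2 ratio of the miR-199 3p arms to the 5p arms was -1.10, -0.25, -0.67 and -0.48 in control GM, in the library order above, and 0.07, -0.21, -0.69 and -0.31 in tKO GM. It was -1.71, -2.17, -1.31 and -0.45 in control DM3 and -1.37, -1.41, -0.39 and -0.26 in tKO DM3. The 5p arm was thus the larger in 15 of 16 libraries. The mean ratio was 0.78 lower in DM3 than in GM in control cells, but the groups overlapped (exact permutation test over 70 assignments, two-sided p = 0.143, adjusted p = 0.686 over 16 tests). Within replicate 1 the control step was -1.26 and within replicate 2 it was -0.30, and in tKO cells the steps were -1.32 and 0.18, so the lower ratio in DM3 was mainly that of replicate 1. Between tKO and control in DM3 the difference was 0.55, with overlap (exact permutation p = 0.257, adjusted p = 0.686). It was 0.55 within replicate 1 and 0.56 within replicate 2. With labels permuted within replicate numbers its unadjusted p was 0.0556, the smallest possible there.

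miR-214-3p outnumbered miR-214-5p in all 16 libraries, by 1.24 to 3.30 on the log2 scale. The means were 1.84 in control GM, 1.69 in tKO GM, 2.23 in control DM3 and 1.71 in tKO DM3, and 0 of the 4 comparisons gave an adjusted p under 0.05 in the exact permutation test (lowest p = 0.229). The ratio of miR-214-3p to the miR-199 3p arms, which come from the same Dnm3os transcript in part, averaged -1.59 in control GM, -1.96 in tKO GM, -0.93 in control DM3 and -1.89 in tKO DM3. Its lowest exact permutation p was 0.143, for tKO against control in DM3, where the difference was -0.96. With 4 libraries against 4 the smallest p this test can give is 0.0286. In an alternative, labels were permuted within replicate numbers. The unadjusted p of that difference was then 0.0556, the smallest the alternative can give. The difference was -1.11 within replicate 1 and -0.82 within replicate 2.

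**Figure D3:**
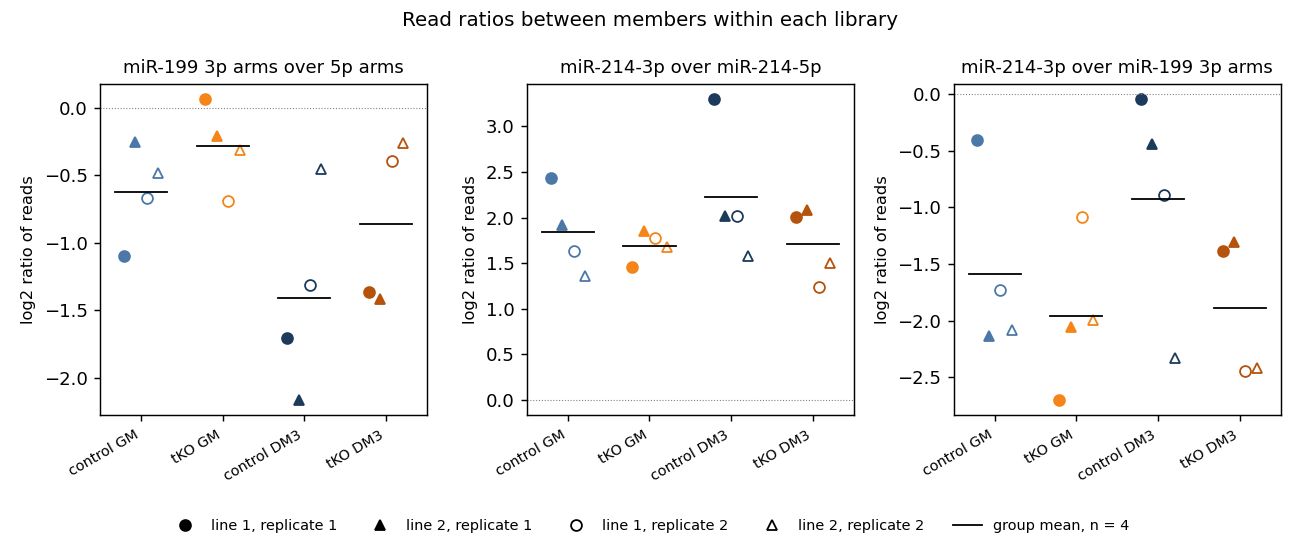
Log2 ratio of reads between members within each library (vertical axis) for the 4 groups, with symbols as in the plot of levels and bars for means of 4 libraries. The miR-199 3p to 5p ratio reaches its lowest value, -2.17, in control DM3 line 2 replicate 1, and miR-214-3p exceeds miR-214-5p in every library.

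The reads of the 3p arms did not all begin at the same 5′ base. The commonest listed sequence at each start shown is printed as the deposited tables give it, with T for U and bases 2 to 8 in capitals. Other lengths at the mature start can be commoner than the forms printed for the other starts. A start 1 base upstream adds the u that precedes both 3p arms in the hairpins and changes the seed.
miR-214-3p, mature start: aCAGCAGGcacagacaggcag
miR-214-3p, 1 base upstream: tACAGCAGgcacagacaggcag
miR-199 3p, mature start: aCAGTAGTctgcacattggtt
miR-199 3p, 1 base upstream: tACAGTAGtctgcacattggtt
miR-199 3p, 1 base downstream: cAGTAGTCtgcacattggtt
The first of these held 17.8% of miR-214-3p reads and the second 14.2%. The third held 37.8% of the miR-199 3p reads, the fourth 8.83% and the fifth 5.13%.

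miR-214-3p was the name with the most upstream starts. Over the 16 libraries 44.8% of its reads without mismatch began 1 base upstream, the highest mean among 71 names or arms with at least 100 such reads in every library, of which 59 had under 1%. The miR-199 3p arms ranked 3, with 15.0%. The 5p arm of miR-199 had 0.00283%, and 99.4% or more of its reads began at the mature base in each library. Thus the arms of one family differed in how fixed their 5′ end was.

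The upstream share of miR-214-3p was 36.5%, 40.8%, 41.5% and 42.0% in control GM and 49.1%, 48.6%, 48.2% and 47.4% in control DM3. All 4 DM3 libraries were above all 4 GM libraries, a pattern seen for 5 of the 71 names (7.04%), miR-214-3p included, and for 2.82% in tKO cells. In tKO cells the share was 44.3%, 40.5%, 46.0% and 42.5% in GM and 44.7%, 49.6%, 47.5% and 47.7% in DM3, and the groups overlapped, at 43.3% ± 2.38 and 47.4% ± 2.04 (SD, n = 4). Starts were described and not tested. For the miR-199 3p arms the upstream share was 14.3% ± 0.851 in control GM and 15.9% ± 0.782 in control DM3, and the downstream share was 9.33% ± 0.754 and 10.4% ± 1.73.

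The share of reads with the exact mature sequence was lower in DM3 for both 3p arms in control cells. A read counted as exact by its listed sequence, with or without a tail, that is, bases added at its 3′ end without template. Over all libraries 27.8% of the exact miR-214-3p reads and 10.6% of the exact miR-199 3p reads carried a tail. For miR-214-3p it was 20.5%, 17.9%, 18.1% and 19.2% in control GM and 11.6%, 13.2%, 14.2% and 13.6% in control DM3. The difference of the means was -5.78 percentage points and the groups did not overlap (exact permutation test, two-sided p = 0.0286, the smallest possible, adjusted p = 0.0857 over 12 tests). In tKO cells it was 15.6%, 16.95%, 15.0% and 17.4% in GM and 13.4%, 10.4%, 11.9% and 11.6% in DM3, again without overlap, with a difference of -4.42 points (exact permutation p = 0.0286, adjusted p = 0.0857). A lower share with no overlap was found for 8 of 71 names in control cells (11.3%) and for 10 of 71 in tKO cells (14.1%), and over all 71 the median step was 1.12 and 0.45 points upward.

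For the miR-199 3p arms the exact share was 20.1%, 20.9%, 18.8% and 20.9% in control GM and 13.3%, 15.0%, 14.2% and 14.7% in control DM3. The difference was -5.83 points with no overlap (exact permutation p = 0.0286, adjusted p = 0.0857). In tKO GM it was 20.99%, 22.6%, 12.8% and 14.1%. Of the reads of the third of these libraries, line 1 replicate 2, 28.8% were listed with a mismatch, against 6.42% to 10.5% in the other 15, and many of them were a 15 nt sequence described with the tails. In tKO DM3 it was 13.5%, 16.6%, 16.5% and 15.8%, which overlapped with tKO GM (difference -2.03 points, exact permutation p = 0.429). Within replicate 1 the tKO step was -6.77 points and within replicate 2 it was 2.72 points. Among reads without mismatch, an alternative added after seeing the data, tKO GM measured 22.5%, 24.3%, 17.9% and 15.5% and the steps were -6.90 and 0.68 points. The control step was then -6.17 points, again without overlap.

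Within GM, the exact share of miR-214-3p was also lower in tKO than in control, with a difference of -2.69 points and no overlap (exact permutation p = 0.0286, adjusted p = 0.0857). Only 2 of 71 names (2.82%) were lower without overlap in that comparison. The difference was -2.96 points in replicate 1 and -2.42 in replicate 2. In DM3 it was -1.33 points and the groups overlapped (exact permutation p = 0.200). The exact share of the miR-199 5p arms was far higher, 69.2% ± 0.804 in control GM, and was lower in tKO DM3 than in control DM3, at 66.0% ± 1.58 against 70.7% ± 3.49 (exact permutation p = 0.0571, adjusted p = 0.114). None of the 12 tests had an adjusted p under 0.05. Reads under 18 nt and those of miR-6240 and miR-6236 were more frequent in DM3 libraries, with overlap in tKO cells, and their part in the exact shares was not tested.

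**Figure D4:**
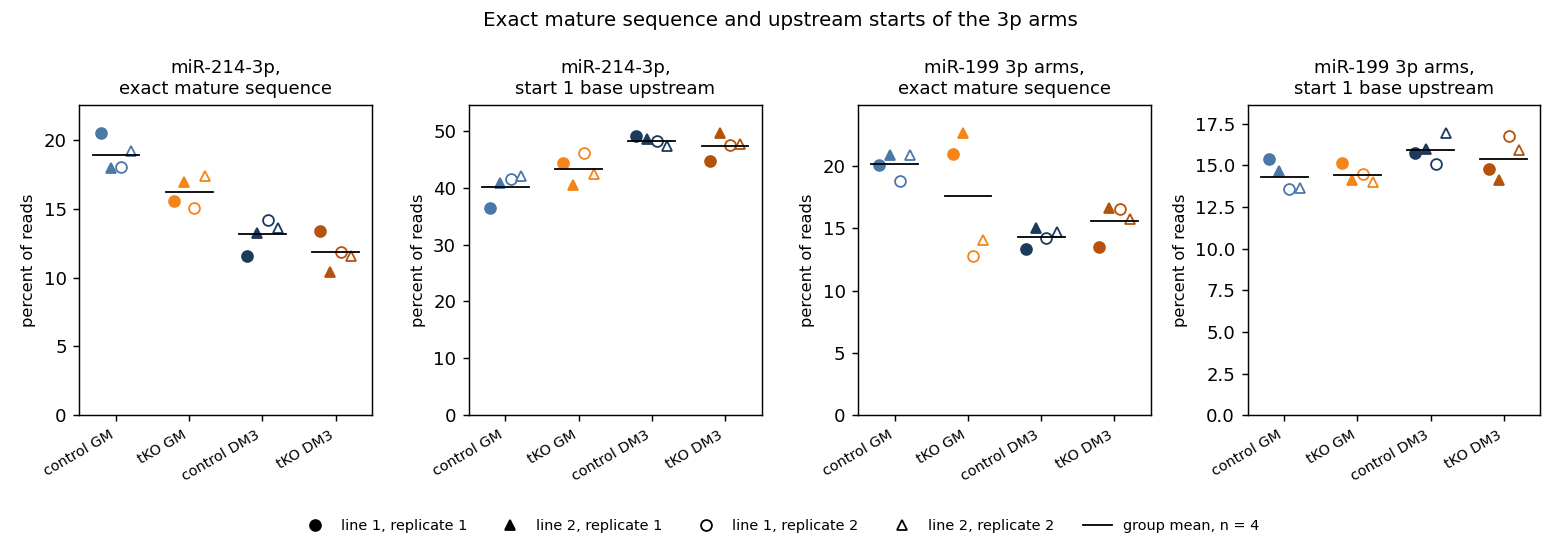
Percent of reads with the exact mature sequence and percent of reads without mismatch that start 1 base upstream (vertical axes, linear from 0), for miR-214-3p and the miR-199 3p arms in the 4 groups, with symbols as in the plot of levels. Reads with a tail are included. For miR-214-3p the exact share lies between 17.9% and 20.5% in control GM and between 11.6% and 14.2% in control DM3, while its upstream share is at most 42.0% and at least 47.4%.

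The share of reads listed at the full annotated length was lower in DM3 than in GM for miR-214-3p in both genotypes and for the miR-199 3p arms in control cells. Lengths are those of the listed sequence without its tail, and tailed reads were counted. A read of the 21 nt form can therefore be longer, and 34.2% of the 21 nt miR-214-3p reads at the mature start carried a tail. Among miR-214-3p reads that start at the mature base, the 22 nt form, which is the annotated length, was 38.6%, 36.3%, 36.6% and 39.2% in control GM and 26.1%, 30.1%, 31.7% and 30.6% in control DM3. In tKO cells it was 33.5%, 34.2%, 33.4% and 35.7% in GM and 27.9%, 23.99%, 27.3% and 26.4% in DM3. The DM3 libraries were below the GM libraries in both genotypes, as for 9 of 71 names in control cells (12.7%) and 11 in tKO cells (15.5%) at their own annotated length. The tKO GM libraries were below the control GM libraries, as for 2 of 71 names (2.82%). The 21 nt form lacking the last base was 35.1% ± 0.738 in GM and 42.3% ± 1.93 in DM3 in control cells (SD, n = 4). In tKO cells it was 34.9% ± 0.619 and 43.7% ± 3.27.

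For the miR-199 3p arms in control cells, the 22 nt form was 28.7% ± 1.30 in GM and 21.4% ± 1.37 in DM3 without overlap, and the 21 nt form 52.8% ± 0.679 and 60.0% ± 1.88. In tKO GM the 22 nt form was 29.8% and 31.7% in replicate 1 and 23.9% and 20.3% in replicate 2, and in tKO DM3 it was 20.2% and 24.02% in replicate 1 and 25.4% and 24.04% in replicate 2. These groups overlapped, at 26.4% ± 5.25 and 23.4% ± 2.23, and within replicate 2 both DM3 libraries were above both GM libraries. The mean templated length was shorter without overlap in control DM3 for 18 of 71 names (25.4%), among them both 3p arms, and in tKO DM3 for 15 (21.1%), none of them a member. Between tKO and control it was shorter without overlap for miR-214-3p in GM, as for 7.04% of names, and for the miR-199 5p arms in DM3, as for 12.7%. Lengths were described and not tested, and reads under 18 nt and those of miR-6240 and miR-6236, more frequent in DM3 libraries, moved with the same comparison. Their part in the shorter forms was not tested.

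**Figure D5:**
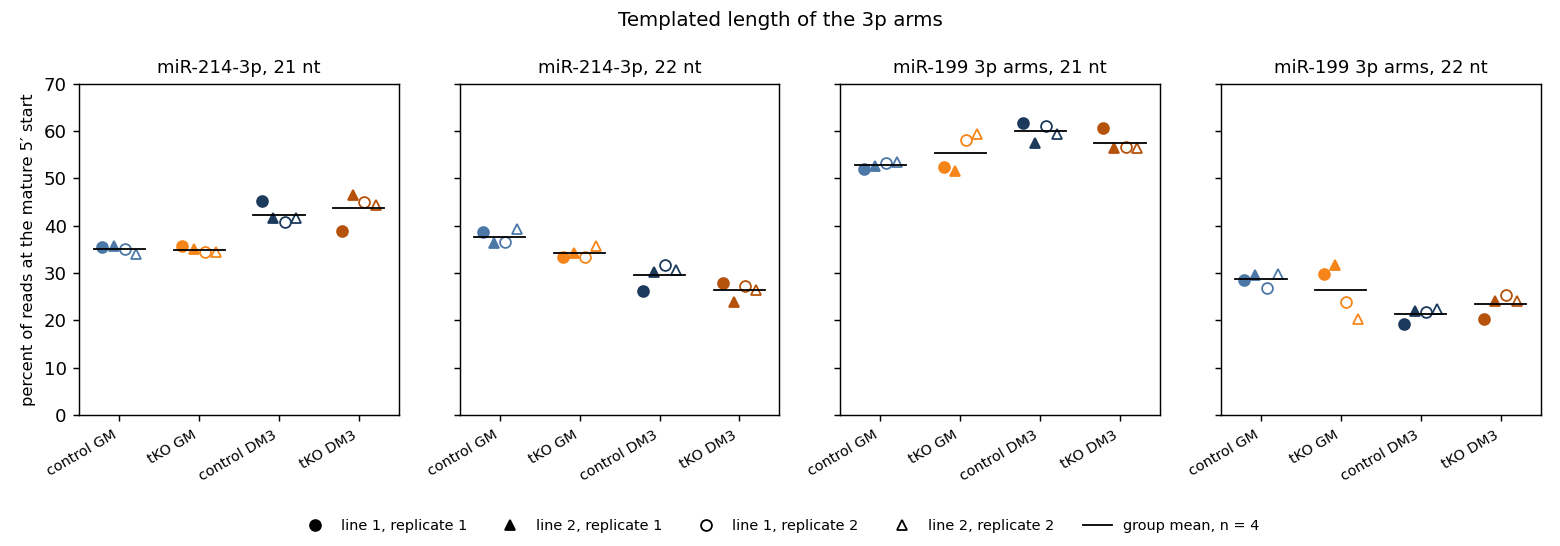
Percent of reads at the mature 5′ start whose listed sequence, without any tail, is 21 or 22 nt long (vertical axis, linear from 0) for miR-214-3p and the miR-199 3p arms in the 4 groups, with symbols as in the plot of levels. Tailed reads are included. For miR-214-3p the 22 nt form lies between 33.4% and 39.2% in the 8 GM libraries and between 23.99% and 31.7% in the 8 DM3 libraries.

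Tails, the bases added to a 3′ end without template, were frequent on miR-214-3p, on 37.9% to 41.4% of its reads in control GM and 31.7% to 37.9% in control DM3. Most of them began with A, at 22.8% ± 1.51 and 22.5% ± 2.09 of reads. Tails beginning with T, which stands for uridine, were on 9.77% ± 1.11 of miR-214-3p reads in control GM and 6.92% ± 0.961 in control DM3, and on 5.03% ± 0.668 and 2.80% ± 0.362 of the miR-199 3p reads. On the miR-199 3p reads C was the commonest first tail base, at 8.50% ± 0.456 and 8.77% ± 0.884. The share with any tail was lower in control DM3 than in control GM for 67 of 71 names. Tails beginning with T were not compared over all names. miR-214-5p carried tails on 26.6% ± 2.17 of reads in control GM, mainly beginning with T (15.8% ± 0.430). Tails beginning with T were not lower in DM3 on this arm, at 16.9% ± 3.23 of its reads in control cells. In tKO cells they were on 15.6% ± 0.832 of its reads in GM and 19.2% ± 2.81 in DM3. Its 21 nt sequence was tailed in 88.4% of reads, while its full 22 nt sequence was tailed in 0.185%. The miR-199 5p sequence of 21 nt was tailed in 90.1% of reads and that of 23 nt in 2.17%. The tailed share did not follow length alone. At the mature start of miR-199 3p, the 20 nt form was tailed in 69.8% of reads, the 21 nt form in 5.75% and the full 22 nt form in 10.6%. For miR-214-3p these were 67.1%, 34.2% and 27.8%, and the 20 nt form of miR-214-5p was tailed in 8.34%. A base that matches the hairpin cannot be seen as a tail.

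The tailed share of the miR-199 3p arms was 22.3%, 19.3%, 23.3% and 20.6% in control GM and 16.7%, 18.5%, 18.5% and 17.1% in control DM3, without overlap (difference -3.69 points, exact permutation p = 0.0286, adjusted p = 0.171 over 12 tests). Such a lower share was found for 43 of 71 names (60.6%) in that comparison, so it was common among all names. For miR-214-3p the difference was -4.31 points with overlap (exact permutation p = 0.0571, adjusted p = 0.171). None of the 12 tail tests had an adjusted p under 0.05.

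One library stood apart in the tails of the miR-199 3p arms. In tKO GM the tailed share was 18.3%, 17.2%, 37.7% and 21.98%, and the third value, line 1 replicate 2, was accompanied by a 15 nt sequence listed under miR-199b-3p with a mismatch.
15 nt sequence: gggttagaccgtcgt
All of its reads carried a tail, and it lies outside the mature arm: its closest place in the Mir199b hairpin begins at base 96, with 2 mismatches, while the 3p arm covers bases 65 to 86. It made up 20.6% of the miR-199b-3p reads in that library and 0.228% to 3.33% in the other 15. Without sequences listed with a mismatch, the tailed shares in tKO GM averaged 18.1% ± 1.18 against 19.9% ± 1.13 in control GM, and the sign of the tKO step turned from 2.43 to -1.81 points. Over the 71 names, with such sequences kept, the median step was also -1.81 points, and it was below 0 for 69 of them.

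Few reads matched only 1 of the hairpins. Of the miR-199 3p reads without mismatch, 99.9% matched Mir199a-1, Mir199a-2 and Mir199b equally. Of the few that extended into a unique base, 251 matched Mir199a-2, the copy inside Dnm3os, 24 matched Mir199a-1 and 2 matched Mir199b. Of the 5p reads, 71 matched only Mir199a-2, 6 only Mir199a-1 and 880 only Mir199b, whose 5p arm differs from miR-199a-5p at 1 base. The exact miR-199b-5p sequence occurred at 0.0851% to 0.460% of the exact miR-199a-5p reads. The commonest of 68 other sequences 1 substitution away from miR-199a-5p reached 0.345% to 0.537%. The libraries separated by replicate number. In the 8 libraries of replicate 1 miR-199b-5p stood at 0.261% to 0.460% and ranked 1 to 6 among these 69 sequences, and in the 8 of replicate 2 it stood at 0.0851% to 0.157% and ranked 12 to 23. It exceeded all 7 sequences with the same base change elsewhere, whose commonest reached 0.112% to 0.166% in replicate 1 and 0.104% to 0.230% in replicate 2, in 8 libraries of replicate 1 and 3 of replicate 2. The replicates also differ in depth, whose part was not tested, and whether these reads come from the Mir199b locus was not tested.

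The names whose levels were most like those of the members over the 16 libraries were taken from 243 names with a mean of at least 100 CPM. For the miR-199 3p arms they were miR-374b-5p (Pearson r = 0.93), miR-103-3p (0.91), miR-152-3p (0.91), miR-21c-5p (0.89) and miR-106b-5p (0.88). For miR-214-3p they were miR-339-5p (0.85), miR-93-5p (0.81), let-7d-3p (0.77), miR-369-3p (0.76) and miR-181a-5p (0.71). Between the members themselves, miR-214-3p and miR-199a-5p had an r of 0.73, miR-214-3p and miR-214-5p 0.54, and miR-214-3p and miR-199b-3p 0.06. These values are descriptions over libraries that share groups, lines and depth.

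Other miRNAs were set beside the families by their known roles. Of 5 miRNAs reported to target Ezh2 besides miR-214, all 5 were listed and 4 had enough reads to be tested, and 0 were called in any of the 5 comparisons. Among all 807 names, 1.12% were called between tKO and control in GM and 0.867% in DM3. Between DM3 and GM 27.6% were called in control and 19.7% in tKO cells, and 0.0% were called for the interaction. miR-26a-5p, the most abundant of the list, was at -0.65 in control DM3 against GM (SE 0.37, adjusted p = 0.211 in edgeR), and the list's median there was -0.74 against 0.02 for all names. In tKO cells miR-26a-5p was at -0.04 and the list's median at -0.19 against 0.01. miR-101a-3p went the other way, uncalled, at 0.31 in control and 0.95 in tKO cells. For tKO against control the list's median was -0.11 in GM and 0.41 in DM3, and for the interaction it was 0.57. Of 10 other miRNAs typical of mesenchymal cells, 4 fell in control DM3 against GM, where 11.8% of all names did, namely miR-140-3p, miR-21a-5p, miR-100-5p and miR-31-5p. The largest of these steps was that of miR-100-5p at -1.44 (SE 0.32, adjusted p = 0.00219 in edgeR), and in tKO cells, where 8.3% of all names fell, it was called at -1.17 (SE 0.32, adjusted p = 0.0141) and the other 9 were not called lower. The difference between genotypes was called for 0 of the 10. The list's medians were -0.68 in control and -0.46 in tKO, where the members' medians were -0.15 and 0.05. miR-761, which shares the seed of miR-214-3p, was not listed under its mature name in any library.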

How the data were processed

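Small RNA of 16 C2C12 libraries was prepared with a NEBNext small RNA kit from 0.5 µg of total RNA and selected for inserts of 15 to 50 nt, per the labels' protocols. The authors deposited 1 table per library with estimated counts per sequence listed under a miRNA name, where a sequence shared by names is divided between them, per the values, and with 3′ tails in further columns. The submitters' processing notes name cutadapt 1.15, STAR 2.5.4 and mm10, with no role given. Loci are from GENCODE M21 on GRCm38.

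Counts were summed per name, giving 2273 names, and rounded. Names that passed filterByExpr with a minimum count of 10 (807) were fitted in edgeR 4.0.16 (R 4.3.3, limma 3.58.1) with TMM scaling over all 16 libraries, and called at an adjusted p of 0.05. DESeq2 1.42.0 was an alternative, and others are in the closing section. The steps were tested on simulated data. Ratios, tails and exact shares were compared by two-sided exact permutation tests, with 0.5 reads added in ratios. Lengths, starts and exact sequences are those of the listed sequence without its tail, and its tailed reads were counted with it. Starts, lengths and tails were set against 71 names with at least 100 reads in every library. Python 3.11.15 (numpy 2.4.6, pandas 2.3.3) was used. Library depth was 112792 to 6543570 reads. Reads carry no molecular identifiers. The named miRNAs are the 6 members, the 5 names most like a member among those of at least 100 CPM, and context lists. Members and lists were chosen with earlier results of these data known.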

Additional observations from a re-analysis of the deposited data

Results flagged for a closer look

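In 3 of 64 groups of 4 libraries that were examined, 1 library lay far from the other three, where chance gives about 1 in 20. miR-199b-3p in control DM3 line 2 replicate 2 stood at 13577 TMM-scaled CPM, and the other libraries of that group stood at 5498 to 6243. The tailed share of the miR-199 5p arms was 13.5% in tKO GM line 2 replicate 2, against 11.5% to 11.6% in the rest of its group. The same share was 10.8% in tKO DM3 line 1 replicate 1, the library with the fewest reads, against 11.7% to 11.9%.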

How the results depend on the processing

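The call of 0 members held in both tKO comparisons and in the interaction under every alternative run. It did not hold for DM3 against GM, where 1 member was called in control cells (miR-199a-3p) under a mean of at least 10 CPM, DESeq2 and the replicate block with line terms (34.1% of names called), and 1 (miR-199a-5p) with exact mature sequences. In tKO cells 1 member (miR-199a-5p) was called with exact mature sequences and with 18 to 25 nt sequences, an alternative added after seeing the data. Same-numbered libraries did not all deviate together (mean r 0.21, 0.103, 0.127 and 0.00654 over 551 names in the 4 comparisons, lowest -0.461), and the labels do not say what the number marks. Libraries of unlike number had a mean r of -0.203, -0.103, -0.129 and 0.0144, lower than the same-numbered ones in each comparison but the last. miR-199b-5p did separate the replicate numbers in every group, and the share of all names that do so was not counted. With the replicate block alone 10, 7, 241, 168 and 0 names were called in the 5 comparisons, with 0 members, and miR-199b-5p in control DM3 against GM turned to 0.00893 and the interaction of miR-214-3p to -0.016.

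Names called between tKO and control in GM were 15 with no filter, 20 with DESeq2, 27 with the replicate block and line terms, 2 with number 1 only, 18 without mismatch and 16 with 18 to 25 nt. In DM3 they were 14, 19, 21, 1, 13 and 20 under the same settings, 76 with replicates of a line summed, 70 with number 2 only and 13 with exact sequences. Between DM3 and GM they were 85 (number 1), 86 (exact) and 133 (18 to 25 nt) in control and 73 (number 2) and 89 (exact) in tKO, where fewer names were tested with the sequence filters. The interaction called 1 name with lines summed and 1 with exact sequences. The causes of the other steps were not tested.

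The log2 fold changes that turned sign were all uncalled. Between tKO and control in GM miR-199b-3p was 0.0177 with DESeq2 size factors and in DESeq2, 0.0664 with TMM without miR-6240 and miR-6236, 0.33 with number 1, 0.0534 exact and 0.00841 at 18 to 25 nt. In DM3 miR-199a-3p was -0.364 (lines summed), -0.59 (number 2) and -0.212 (18 to 25 nt), miR-199a-5p 0.0885 (number 1), miR-199b-5p -0.203 (lines summed), -0.313 (number 2) and -0.0624 (exact), and miR-214-5p 0.0364 (no filter), 0.0155 (10 CPM) and 0.0844 (number 1). For DM3 against GM in control miR-199a-5p was -0.0132 and miR-214-3p -0.179 with no filter. miR-199b-5p was 0.37 (total counts), 0.0954 (lines summed), 0.0867 (number 2), 0.2 (no mismatch), 0.731 (exact) and 0.293 (18 to 25 nt), and miR-214-5p 0.0925 (total counts), 0.00536 (no mismatch), 0.389 (exact) and 0.0699 (18 to 25 nt). In tKO miR-199b-3p was 0.148 (total counts), 0.218 (lines summed), 0.652 (number 2), 0.0516 (no mismatch) and 0.095 (18 to 25 nt). miR-214-3p was -0.0463 (no filter), -0.0165 (without miR-6240 and miR-6236), -0.0381 (block with line terms), -0.113 (lines summed), -0.112 (number 2) and -0.186 (exact). miR-214-5p was -0.1 (no filter), -0.0027 (DESeq2 size factors), -0.0876 (without miR-6240 and miR-6236), -0.04 (block with line terms) and -0.0851 (number 1). The interaction of miR-214-3p was -0.152 (total counts), -0.116 (without miR-6240 and miR-6236), -0.105 (block with line terms), -0.217 (lines summed), -0.122 (number 2), -0.0982 (no mismatch), -0.299 (exact) and -0.163 (18 to 25 nt), and exact sequences gave -0.117 for miR-199a-5p and -0.2 for miR-214-5p. Total counts moved all names by a median of 0.375 and exact sequences by 0.602 in control DM3 against GM. With 5 reads added the miR-199b-5p to miR-199a-5p ratio between tKO and control in GM was 0.0156. Without mismatch the tailed share of the miR-199 3p arms differed between tKO and control by -1.81 points in GM and 0.176 in DM3. Over reads without mismatch the exact shares kept their sign in all 12 comparisons.

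Leaving out 1 library at a time gave 5 to 16 names called for tKO against control in GM, 5 to 53 in DM3 (53 without tKO DM3 line 1 replicate 1), 0 to 1 for the interaction, and 0 to 1 members for DM3 against GM in control. Log2 fold changes whose sign turned ranged, in GM, from -0.232 to 0.278 (miR-199b-3p), and in DM3 from -0.156 to 0.665 (miR-199a-3p), -0.616 to 0.168 (miR-199a-5p), -0.467 to 0.865 (miR-199b-5p) and -0.365 to 0.174 (miR-214-5p). For DM3 against GM they ranged in control from -0.0664 to 0.302 (miR-199a-5p), -0.633 to 0.232 (miR-199b-5p) and -0.187 to 0.227 (miR-214-3p), and in tKO from -0.0776 to 1.04 (miR-199b-5p), -0.425 to 0.0419 (miR-199b-3p), -0.418 to 0.3 (miR-214-3p) and -0.276 to 0.187 (miR-214-5p). The interaction ranged from -0.202 to 0.553 (miR-199a-5p), -0.0528 to 1.25 (miR-199b-5p), -0.482 to 0.309 (miR-214-3p) and -0.015 to 0.512 (miR-214-5p). Values that kept their sign ranged, in GM, from -0.612 to -0.222 (miR-199a-5p), -0.767 to -0.278 (miR-214-3p), -0.553 to -0.043 (miR-199a-3p), -0.814 to -0.0475 (miR-199b-5p) and -0.484 to -0.242 (miR-214-5p), and in DM3 from 0.157 to 0.858 (miR-199b-3p) and -1.02 to -0.278 (miR-214-3p). For DM3 against GM they ranged in control from -1.86 to -1.16 (miR-199a-3p), -1.06 to -0.304 (miR-199b-3p) and -0.514 to -0.165 (miR-214-5p), in tKO from -1.17 to -0.534 (miR-199a-3p) and 0.0385 to 0.729 (miR-199a-5p), and for the interaction from 0.185 to 1.01 (miR-199a-3p) and 0.0924 to 0.884 (miR-199b-3p). Log2 ratios ranged from -0.301 to 0.0548 (GM) and -0.106 to 0.174 (DM3 against GM in tKO) for miR-214 3p to 5p, from -0.661 to 0.0245 and -0.178 to 0.361 for miR-214-3p to miR-199 3p, and from -0.226 to 0.24 (GM), -0.541 to 0.0128 (control) and -0.167 to 0.368 (tKO) for miR-199b-5p to miR-199a-5p. In GM the tailed share of the miR-199 3p arms ranged from -2.21 to 4.64 points and the exact share of the 5p arms from -1.27 to 0.741. Among the members miR-199a-3p had the fewest reads, 1 to 35 a library in control DM3.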
